A study of Microtus ochrogaster with 34 samples.

Results

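In the testis of the montane water vole Arvicola terrestris scherman, 57 genes were expressed in summer, were almost absent from winter testes without spermatogenesis, and stood under 0.3 of their summer level in winter testes that kept spermatogenesis. They were chosen by 3 conditions on the mean RPKM of each group, where RPKM is the read number scaled by library size and gene length, so that levels of genes of unequal length can be set side by side. The summer mean had to be at least 5 RPKM, the summer mean at least 16 times the mean of regressed winter testes, and the mean of active winter testes under 0.3 of the summer mean. Of the 23038 genes listed, 1028 met the first pair of conditions and are called lost genes here. The 57 members met all 3 conditions, and the 971 other lost genes kept 0.3 or more of their summer level in active winter testes.

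The samples were whole testes of 34 wild-caught males: 18 summer males (S), 5 winter males that maintained spermatogenesis (W+) and 11 winter males that did not (W-). All were labelled as wild type (WT), no treatment was given in the labels, and all were taken as animals of reproductive age by their weight, with no exact age given. Summer animals were trapped in July and August, winter animals in January and February, and each library came from 1 animal. According to the paper, the animals came from different sites and years and were housed under controlled light and temperature after capture. How long they were kept before sampling is not stated. The W- group joins males with empty tubules and males with an intermediate histology, and the labels do not part them. Poly-A RNA of the testis was sequenced and the reads were placed on the genome of another vole, Microtus ochrogaster, which is the organism named in the labels.

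Spermatogenesis runs from spermatogonia, the dividing stem and progenitor cells, through spermatocytes, which carry out meiosis, to haploid spermatids that reshape into spermatozoa. Many genes of the testis are transcribed in only 1 of these stages, and spermatids make abundant transcripts for the packaging of the sperm nucleus and for the flagellum. In seasonal breeders the tubules of a regressed testis lose the later stages and keep Sertoli cells, the supporting cells of the tubule, and early germ cells, while the interstitium between tubules remains. In a bulk testis library, fewer cells of a type and less RNA per cell cannot be told apart.

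The genes carried only Ensembl identifiers of Microtus ochrogaster, and the reference table used here paired none of the 23038 with a symbol. The roles of the members are therefore not given, the tissue could not be checked against its cell type markers, and 4 members are written by identifier while the others are described by their rank in summer mean. No sequences of the members were at hand. Counted reads ranged from 5534633 to 63857265 in S, from 4960105 to 8576454 in W+ and from 2938628 to 9653984 in W-. S12 to S15 were the deepest, and W-5 the shallowest.

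The members were the lower end of one continuous range. Among the 1028 lost genes, the W+ mean was a median of 0.449 of the S mean, with quartiles at 0.371 and 0.563. Only 2 lost genes stood under 0.1, 4 between 0.1 and 0.2, and 51 between 0.2 and 0.3, next to 303 between 0.3 and 0.4. The 3 members just inside the limit stood at 0.296, 0.297 and 0.298, and the 3 lost genes just outside it at 0.300446, 0.300678 and 0.300957. The last of these had S means of 169.8, 1171.3 and 401.5 RPKM, so the limit of 0.3 parts genes of like ratio. The W+ to S and S to W- ratios chose the members, and both are given as a description without support from a test.

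**Figure D1:**
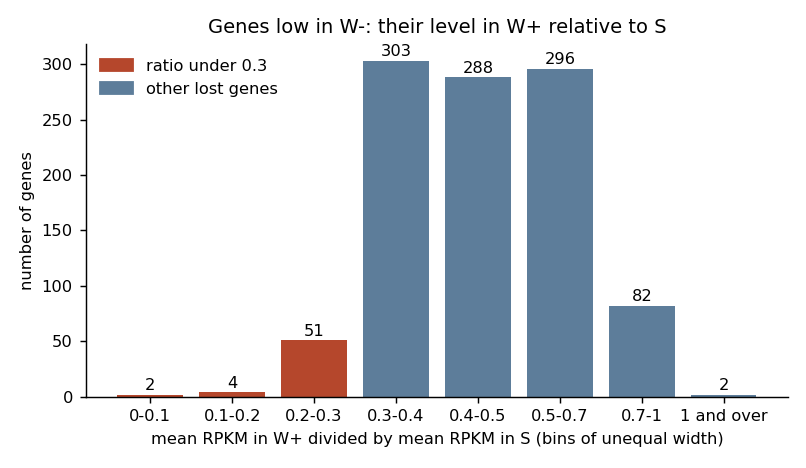
Number of lost genes (vertical axis) by the ratio of their mean RPKM in W+ to that in S (horizontal axis, bins of unequal width). The 3 red bars hold the 57 members, 51 of them between 0.2 and 0.3, and they adjoin a bar of 303 other lost genes between 0.3 and 0.4.

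The members spanned a wide range of summer levels, from 5.35 to 3211 RPKM, with a median of 43.6 RPKM. The S mean was under 10 RPKM in 17 members, between 10 and 100 RPKM in 20 and at least 100 RPKM in 20. The 5 most abundant members held 69.3% of the summed S mean of all 57. In W+ the members stood at 0.0519 to 0.298 of S, with a median of 0.278. In W- they stood at a median of 0.549% of S and at most at 5.97%.

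**Figure D2:**
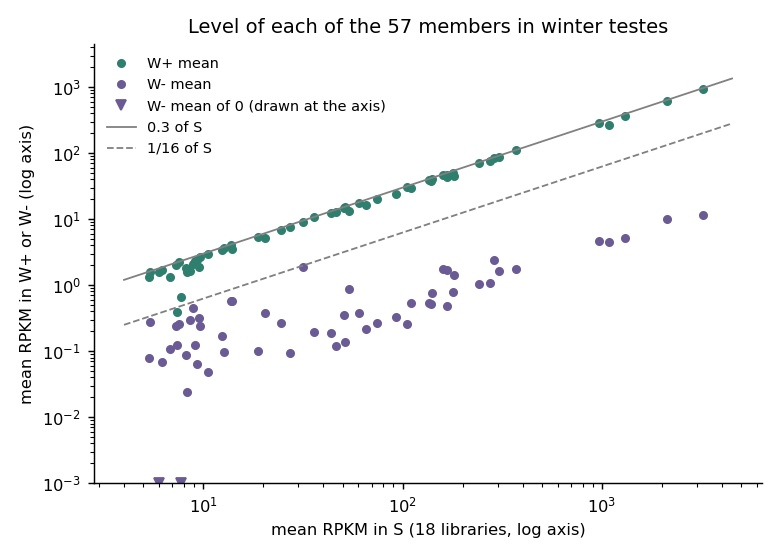
Mean RPKM of each of the 57 members in W+ (green) and W- (purple) on the vertical axis against the S mean on the horizontal axis, both logarithmic. The green points lie along the line of 0.3 of S except for a pair well below it. The purple points lie under the line of 1/16 of S, and the 2 members with a W- mean of 0 are drawn as triangles on the lower axis.

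ENSMOCG00000017865, whose gene model has 466 bases, was the most abundant member. Its RPKM ranged from 2484 to 4161 in S, with a median of 3019, and was 371.6, 856.5, 1128, 1158 and 1229 in W+1 to W+5. It was 66.4, 17.3, 2.66 and 35.9 in W-1 to W-4 and between 0 and 2.62 in W-5 to W-11, with 3 libraries at 0. The 3 groups did not overlap, W+1 was the lowest of the W+ libraries, and the 4 W- libraries with the lowest numbers stood highest among the W- libraries. The means were 3211 ± 509 (SD, n = 18) in S, 948 ± 352 (SD, n = 5) in W+ and 11.7 ± 21.3 (SD, n = 11) in W-. The log2 difference of W+ from W- was 8.93 with a standard error of 0.97 (limma on log2(RPKM + 0.1), adjusted p = 7.03e-10). Both of these means enter the rule through S. This difference and its p-value, and those of single members below, therefore describe the members and are not support for them.

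ENSMOCG00000003072, with a gene model of 729 bases, was second in S mean. Its RPKM ranged from 1780 to 2541 in S, with a median of 2182, and was 236.6, 537.9, 865.5, 715.4 and 755.0 in W+1 to W+5. In W-1 to W-4 it was 57.9, 13.7, 7.22 and 23.2, and in W-5 to W-11 between 0.383 and 2.34. The order of libraries was like that of the most abundant member, and again no library of one group reached those of another. The means were 2134 ± 210 (SD, n = 18) in S, 622 ± 246 (SD, n = 5) in W+ and 10.0 ± 17.4 (SD, n = 11) in W-, and the log2 difference of W+ from W- was 7.49 with a standard error of 0.67 (limma, adjusted p = 5.71e-12).

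The next 3 members in S mean, at 1304, 1086 and 965 RPKM, had W+ means of 369.9, 265.6 and 281.1 RPKM and W- means of 5.24, 4.54 and 4.69 RPKM. In each of them W+1 was the lowest W+ library, at 146.5, 125.5 and 105.8 RPKM, and W-1 the highest W- library, at 29.1, 25.7 and 34.9 RPKM. The member ranked 5 in S mean has a gene model of only 123 bases and the one ranked 10 has 87 bases. At such lengths a given RPKM rests on fewer reads than in a longer gene, here 1149 and 211 reads over the 5 W+ libraries.

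ENSMOCG00000011328 had the lowest ratio of W+ to S. Its RPKM ranged from 4.24 to 11.6 in S, with a median of 6.60, and was 0.171, 0.538, 0.452, 0.580 and 0.182 in W+1 to W+5. In W- it lay between 0 and 0.442, with a median of 0.0790. All S libraries stood above all winter libraries, but the W+ and W- libraries overlapped. The W+ mean of 0.385 ± 0.196 (SD, n = 5) was 0.0519 of the S mean of 7.41 ± 2.48 (SD, n = 18), and the W- mean was 0.122 ± 0.131 (SD, n = 11). The winter values rest on 15 reads in all W+ and 13 reads in all W- libraries. The log2 difference of W+ from W- was 1.20 with a standard error of 0.32 (limma, adjusted p = 0.00130), and at a pseudocount of 0.5 or 1 it was 0.50 or 0.30, below the limit of 1 for a call.

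ENSMOCG00000007354 had the next lowest ratio, 0.0858, but on a gene model of 61 bases. Its RPKM was 0 in 4 W+ libraries and 3.30 in W+5, where it came from 1 read, and 0 in all 11 W- libraries. In S it ranged from 0 to 35.8, with a mean of 7.68 ± 8.32 (SD, n = 18), so that the winter values lie within the range of the S libraries. No fold change is given for it against W-, where no read was counted.

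**Figure D3:**
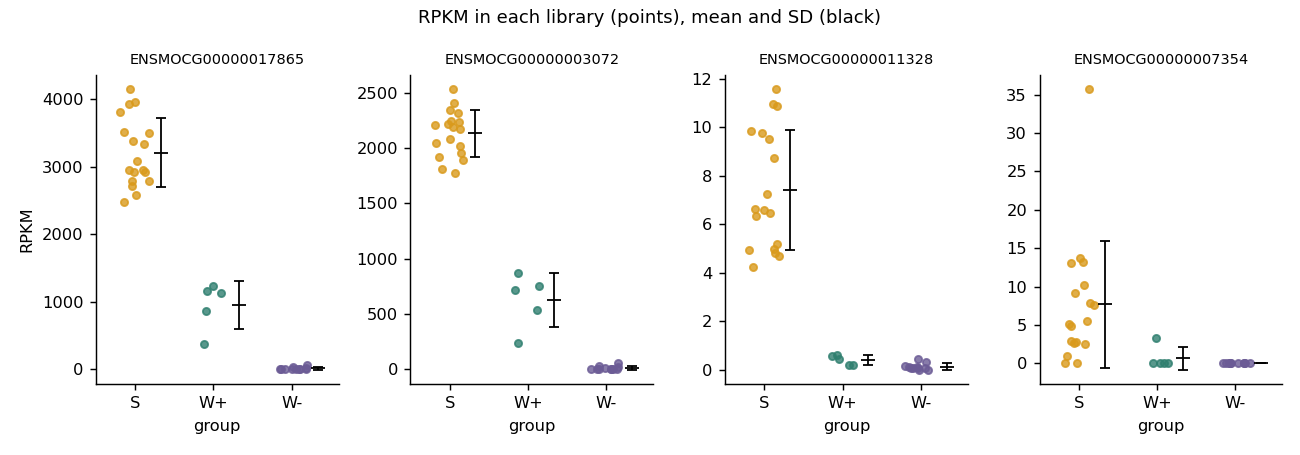
RPKM in each library (points; linear axes that differ between panels) with mean and SD in black for the 4 members written by identifier. In the left pair of panels W+ lies between S and W-, at means of 948 and 622 RPKM. In the right pair W+ lies at or near the W- level, at means of 0.385 and 0.659 RPKM.

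Calls were made with limma across 19185 genes at an adjusted p under 0.05 and a log2 difference beyond 1, and all 57 members passed the filter on low values. Of all genes tested, 7.04% were called lower in W+ than in S and 28.7% lower in W- than in S. Of the members, 51 were called lower in W+ than in S and 57 lower in W- than in S, and since these contrasts chose the members, nothing is read from the counts. In 32 members no W+ library reached the lowest S library, as in 5.23% of all genes tested, and in 53 no W- library did, as in 23.0% of all genes tested. The median log2 difference of the members from S was -1.93 in W+ and -6.84 in W-, beside -0.06 and -0.04 over all genes tested.

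The 6 members not called lower in W+ than in S were of different kinds. The 3 with the S ranks 1, 4 and 5 had no overlap between S and W+ and adjusted p-values of 0.132, 0.0598 and 0.118 by limma. Their spread is shared with W-, where they ranged from 0 up to 66.4, 25.7 and 34.9 RPKM. The other 3 had S means under 10 RPKM, at S ranks 41, 53 and 55, and overlapped between S and W+.

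The members remained detectable in W+ at levels above W-. Over all genes tested, 21.9% were called higher in W+ than in W- by limma, and the W+ and W- libraries did not overlap in 19.8%. Among the members 54 of 57 were called higher in W+ than in W-, and 46 did not overlap. The median log2 difference was 4.86, beside -0.02 over all genes tested. The ratio of W+ to W- is not a condition of the rule, but both means enter it through S, so the counts describe the members and are not support for them. Among the 971 other lost genes 970 were called, 953 without overlap, with a median log2 difference of 4.45.

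The ratio of the W+ mean to the W- mean could be formed for 55 members and ran from 3.15 to 116, with a median of 46.6. It was over 50 in 27 members and under 10 in 10. The highest ratio, 116, belonged to the member ranked 20 in S mean, at 30.2 RPKM in W+ and 0.259 RPKM in W-. Among the 20 members with an S mean of at least 100 RPKM it lay between 25.9 and 116. Among those under 10 RPKM in S its median was 11.3, and the 3 members not called higher in W+ than in W-, at S ranks 49, 53 and 55, had 1, 17 and 3 reads over all W+ libraries.

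The summed levels of the members lay apart between W+ and S, which the choice of members by these means fixes in large part. The summed RPKM of the 57 members was 12563 ± 1327 (SD, n = 18) in S, with a range of 9857 to 15675. In W+1 to W+5 it was 1439, 3199, 4684, 4142 and 4347, a mean of 3562 ± 1309 (SD, n = 5). No W+ library reached the lowest S library, and W+1 was the lowest. The members took 0.645% to 0.861% of all counted reads in S and 0.129% to 0.346% in W+.

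In W+1 the median member stood at 11.2% of its S mean, against 24.1%, 36.3%, 29.9% and 33.5% in W+2 to W+5. W+1 was below all other W+ libraries in 44 of the 57 members, including all 20 with an S mean of at least 100 RPKM. The highest W+ library was W+3 in 28 members, W+5 in 17, W+4 in 8 and W+2 in 4. The other lost genes were also lowest in W+1, where their median stood at 23.1% of S, against 35.8%, 60.0%, 52.2% and 56.1% in W+2 to W+5. Relative to the mean of the other 4 W+ libraries, W+1 held a median of 0.364 for the members and 0.444 for the other lost genes.

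How many genes met the rule depended on the W+ libraries used, W+1 most of all for the members. Without W+1 only 22 genes met it, all of them among the 57, and the median ratio of the 57 members was 0.314 in place of 0.278. Those 22 had a median S mean of 9.43 RPKM, 12 were under 10 RPKM and 2 were at 100 RPKM or more. Without W+3 the rule gave 145 genes, without W+4 86 and without W+5 105, and without W+2 it gave 41. Scaling bears on it as well. With the libraries scaled by their total of counted reads 7 genes met the rule, and the median ratio of the members was 0.347, while the median log2 ratio of W+ to S over all genes tested moved from -0.05 to 0.30. With quantile normalization 25 genes met it, and the median ratio was 0.307.

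In every W+ library the median of the members relative to S was below that of the other lost genes, at 0.487 to 0.673 of it. In the S libraries the same quotient was 0.872 to 1.09. The limit of 0.3 on the mean of these same W+ libraries parts the sets, so that a quotient below 1 restates the rule, and only its size in each library is given here.

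**Figure D4:**
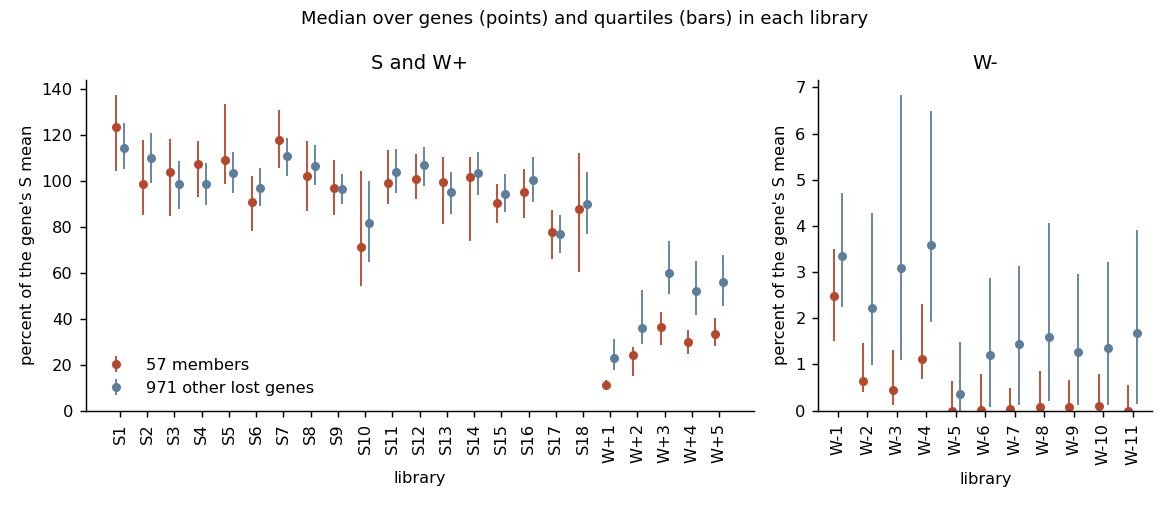
Level of the 57 members (red) and the 971 other lost genes (blue) in each library as a percentage of each gene's own S mean (points, median over genes; bars, quartiles), for S and W+ on the left and W- on the right with a smaller scale. In W+ the rule itself parts the sets, and the members are lowest in W+1 at a median of 11.2%. In W- the members lie below the other lost genes in all 11 libraries, and are highest in W-1 at 2.49%.

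The W- males differed widely in the members. Their summed RPKM was 311, 83.9, 42.3 and 140.0 in W-1 to W-4 and 11.7 to 22.7 in W-5 to W-11, and the mean of 62.9 ± 91.5 (SD, n = 11) lay far above the median of 18.9. Each of W-1 to W-4 had reads of 45 to 51 members, and each of W-5 to W-11 of 24 to 36. W-1 to W-4 were also the deepest W- libraries, with 9004889 to 9653984 counted reads against 2938628 to 8019103 in the others. The part of depth in these values was not tested.

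The median member stood at 2.49% of its S mean in W-1, 0.652% in W-2, 0.436% in W-3 and 1.12% in W-4, and at 0% to 0.0976% in W-5 to W-11. The median of the other lost genes was 3.35%, 2.22%, 3.10% and 3.58% in W-1 to W-4 and 0.355% to 1.68% in W-5 to W-11. The members were thus below the other lost genes in all 11 W- libraries, nearest to them in W-1, at 0.741 of their level, and at no more than 0.0719 of it in W-5 to W-11. W-1 was above all other W- libraries in 36 of the 57 members (63.2%) and in 34.6% of the other lost genes.

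Abundant genes show this best, since read number limits their values least. Among genes with an S mean of at least 100 RPKM, the 20 members stood at medians of 2.52%, 0.588%, 0.334% and 1.05% of S in W-1 to W-4, and the 368 other lost genes at 3.51%, 2.18%, 2.75% and 3.40%. In W-5 to W-11 these members stood at 0% to 0.0656% and the other lost genes at 0.286% to 1.40%. In W-6, a library of 7627046 counted reads, 11 of the 20 members had no read, while 62 of the 368 other lost genes had none. Under 10 RPKM in S the order was not uniform, and in W-6 the median was 1.14% for the members and 0.538% for the others. The rule sets only an upper limit on W- for members and other lost genes alike, and these medians are a description with no test between the sets.

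**Figure D5:**
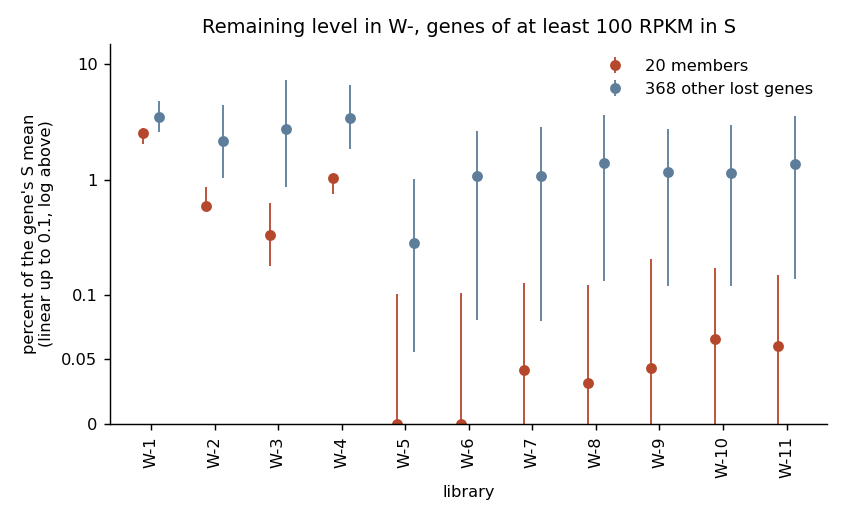
Percentage of the gene's S mean that remained in each W- library (points, median over genes; bars, quartiles) for the 20 members (red) and 368 other lost genes (blue) with an S mean of at least 100 RPKM; the vertical axis is linear up to 0.1 and logarithmic above. The members lie below the other lost genes in all 11 libraries, close to them in W-1 at 2.52% against 3.51%, and at 0.0656% or less in W-5 to W-11.

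A smaller number of members departed from that pattern. In 19 of the 55 members with any W- reads, a library other than W-1 was the highest. The member ranked 31 in S mean, at 31.8 RPKM in S, was present in every W- library, between 1.00 and 2.64 RPKM, with W-5 the highest and W-2 the lowest. In W+ it stood at 7.66, 3.05, 20.3, 4.85 and 9.57 RPKM, all above the W- libraries. The member ranked 36 had the longest gene model, 9233 bases, and stood between 0.343 and 1.03 RPKM in W- and at 3.55 ± 1.39 RPKM (SD, n = 5) in W+. Both kept a W- level in all 11 males, but so did other members, among them those ranked 2 and 3 in S mean. The most abundant member had no read in 3 of the males.

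The members had a wider spread among summer males than the other lost genes, mostly at low summer levels. The same S values enter all 3 conditions of the rule through their mean. The spread is therefore not independent of the choice of members, and it is given as a description with no test between the sets. The coefficient of variation in S, the SD divided by the mean, had a median of 0.272 over the members, 0.175 over the other lost genes and 0.157 over all 10529 genes with an S mean of at least 5 RPKM. It was over 0.5 in 11 members (19.3%) and in 17 other lost genes (1.75%). Of those 11 members 10 had S means under 10 RPKM, where reads are few and where members make up 17.9% of lost genes. Within classes of S mean the medians of members and other lost genes were 0.538 and 0.328 at 5 to 10 RPKM, 0.286 and 0.217 at 10 to 50, 0.185 and 0.155 at 50 to 200, and 0.165 and 0.134 at 200 RPKM or more. The difference was thus smaller in absolute size among abundant genes. The lowest S value was in S10 for 14 of the 57 members and 311 of the 971 other lost genes, in S17 for 11 and 287, and in S18 for 11 and 141, so that low values in these libraries were common to both sets.

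A pair of members had values in S that lay in a high and a low range, though without a clean split. The member ranked 53, with a gene model of 429 bases, was under 1 RPKM in 11 of 18 S libraries. It was over 10 RPKM in 5, up to 27.4, and at 4.73 and 5.18 RPKM in S3 and S6. In W+ it was 0, 3.46, 0, 0.299 and 2.81 RPKM. Its S mean of 6.77 RPKM is thus carried by a minority of animals, and it was called in neither W+ comparison. The member ranked 23 was between 31.2 and 44.5 RPKM in 7 S libraries and between 59.2 and 97.0 RPKM in the other 11. Of these 11, S17 stood at 59.2 RPKM and S15 next at 73.0, a step nearly as wide as that between the ranges. In W+ the member was at 7.22, 14.0, 0.116, 16.7 and 43.2 RPKM. W+3, the highest W+ library for 28 of the 57 members, was thus the lowest for this one. Both were picked after their values were seen.

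The members had shorter gene models than the other lost genes, but not at every summer level. Length was not itself a condition of the rule, but it divides every RPKM and bears on how many reads stand behind it. It is therefore not independent of the choice of members. The length recovered from the RPKM had a median of 972 bases (quartiles 546 and 1599), against 1317 bases for the other lost genes, 1803 bases for genes with an S mean of at least 5 RPKM and 1606 bases for all genes above 0. Under 1000 bases were 29 members (50.9%), 34.1% of the other lost genes and 25.6% of genes at 5 RPKM or more in S. By class of S mean the medians of members and other lost genes were 939 and 1287.5 bases at 5 to 10 RPKM, 1403 and 1422 at 10 to 50, 1134 and 1418 at 50 to 200, and 601.5 and 1055 at 200 RPKM or more, so that they hardly differed at 10 to 50 RPKM. No test was made between the sets. The members also made up 17.9% of lost genes with an S mean of 5 to 10 RPKM, against 3.85% at 10 to 50, 4.22% at 50 to 200 and 5.21% at 200 RPKM or more.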

How the data were processed

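Testis libraries of 34 males were grouped by the sample labels as S, W+ and W-. For the deposited RPKM, the authors used Trim Galore 0.6.10, FastQC 0.12.1, HISAT2 with the assembly MicOch1 of Microtus ochrogaster, HTSeq and a DESeq2 normalization. The submitters' processing notes name the build mm10. Strandedness, annotation version and the treatment of multi-mapped reads were not given in the sources used here, so members with near-identical copies or overlapping genes are uncertain.

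Of 23038 genes, 20821 were above 0 in a library. For all of these, the deposited RPKM were whole reads within 0.02 reads. Gene lengths came from the same steps. The RPKM were used as deposited, with reads only for depth and alternatives. limma 3.58.1 (R 4.3.3, eBayes with trend) was fitted on log2(RPKM + 0.1) to all 34 libraries, with no block, for 19185 genes with at least 0.1 RPKM in 5 libraries, and p was adjusted by Benjamini-Hochberg. Such folds understate changes of low genes. On simulated reads, 193, 192 and 188 of 200 genes changed 4-fold were called for W+ against S, W- against S and W+ against W-, with 7, 3 and 3 false calls over 18898, 18897 and 18917 genes. Apart from that change, the simulation gave all groups the mean and spread of S. Its rates therefore do not carry over to members that are near 0 in W- or have few W+ reads.

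The members, gene lists and alternatives were chosen with earlier results of these data known. The planned naming rule, gene lists and cell type markers could not be applied, since no identifier matched a symbol. The identifiers written are the members with the 2 highest S means and the 2 lowest ratios of W+ to S.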

Additional observations from a re-analysis of the deposited data

Results flagged for a closer look

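In W+, the RPKM of ENSMOCG00000007354 was 3.30 in W+5 and 0 in the other 4 libraries, so that the gap from W+5 to the nearest library was the whole range of the group. The value came from 1 read on a gene model of 61 bases. Over the 57 members, W+1 stood apart as the lowest W+ library in 3 and W+5 as the highest in 2 by the same measure, which chance flags in about 1 of 20 groups.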

How the results depend on the processing

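The number of genes that met the rule depended on its limit, the scaling and the W+ libraries. It was 6 with a ratio of W+ to S under 0.2, 360 with one under 0.4, 7 with scaling by total counted reads and 25 with quantile normalization, and leaving out 1 W+ library at a time gave 22 (without W+1) to 145 (without W+3). The other 7 alternatives of the rule gave 40 to 72 genes. Group medians in place of means gave 66 genes, of which only 34 were among the 57. Over 20 alternative fits, 42 to 55 members were called lower in W+ than in S, 56 to 57 lower in W- than in S and 51 to 55 higher in W+ than in W-.

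The log2 difference of W+ from W- ranged from 7.48 to 10.85 for ENSMOCG00000017865, from 6.46 to 8.98 for ENSMOCG00000003072 and from 0.30 to 1.62 for ENSMOCG00000011328. The last was not called with a pseudocount of 0.5 or 1 or with quantile normalization (0.88). The groups share replicate numbers, but the numbers name different animals: correlations of deviations between same-numbered libraries were -0.0515 to 0.0207 for S and W+, -0.0454 to 0.0960 for S and W- and -0.160 to 0.138 for W+ and W-. With the replicate number as a block, 55, 57 and 54 members were called in the 3 comparisons, and the log2 differences of the 3 genes above were 7.48, 6.46 and 1.24.

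Some low winter values rest on few reads: 16 members had under 100 reads over all W+ libraries and 3 had 3 or fewer over all W- libraries. The part of depth in the winter values was not tested. Counted reads per unit of size factor were 6841710 to 8433250 in W+, 9364140 to 10712100 in S and 5913150 to 6727620 in W-, so winter levels depend on the scaling. Season, date of capture and group cannot be told apart between S and winter males.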
